A study of Azumapecten farreri with 9 samples.

Results

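The miR-365 seed was examined in small RNA libraries from blood cells (hemocytes, which carry out immune defence in bivalves) of Azumapecten farreri, the Zhikong scallop. This seed is carried by 2 of the 417 lines of the deposited table, where a line is 1 named small RNA sequence with 1 value per library. Among them 41 lines share a sequence with another line, and each is counted as its own line. The line aca-miR-365-3p was taken by its registered name, and the predicted line PC-3p-83_47257 was added for its seed (bases 2 to 8, the part of a miRNA that pairs first with its targets). PC-3p-83_47257 was added when its lower level in the LPS exosome libraries was already known, so its levels are a description with no test. Scallops had received an injection of LPS exosomes (vesicles tied to stimulation by lipopolysaccharide, a bacterial cell wall component), of normal exosomes, or of phosphate-buffered saline (PBS), and each group has 3 of the 9 libraries. Exosomes are small membrane vesicles that carry RNA between cells. The labels give neither strain nor age nor time after injection. They do not say that libraries came from separate animals or pools, so the spread between libraries may be technical. Reads of hemocytes and reads of injected vesicles cannot be told apart, nor can fewer cells of a type and less RNA per cell.

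miR-365 is a conserved miRNA whose genes lie close to miR-193 genes in vertebrates, so that the pair can be made from a shared transcript. In vertebrates both have been studied in brown fat and in tumours, and human miR-365 is known to repress interleukin 6, an inflammatory cytokine. A miRNA guides Argonaute proteins to messenger RNAs that match its seed, so sequences with 1 seed can share predicted targets even where their other bases differ. Nothing in these data measured targets.

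The sequences below show the shared seed, in capitals, and the seed of the miR-193 line, the vertebrate cluster partner, in the DNA letters of the table.
aca-miR-365-3p: tAATGCCCctaaaaatccttat
PC-3p-83_47257: aAATGCCCccagaaatcctaaa
lgi-miR-193_1ss22CA: tACTGGCCtgcaaaatcccaaa
Prefixes name the species of the registered miRNA, aca for the green anole lizard and lgi for the owl limpet, and the suffix 1ss22CA marks a base substituted from that record. The prefix gives the registered record, not the origin of the RNA. aca-miR-365-3p has no suffix. Predicted names begin with PC.

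The lines with the miR-365 seed are both 22 bases long and were identical at 17 of 22 positions (77.3%). Counted from 1 at the 5′ end, with the base of aca-miR-365-3p first, PC-3p-83_47257 differed by T1A, T10C, A12G, T20A and T22A. The difference at base 1 lies before the seed and the others lie after it. From base 9 on, 10 of 14 positions were identical, and the longest run in common was 8 bases. Neither sequence was a trimmed or extended form of the other. Among the 396 distinct sequences of the table, no other one had this seed at bases 2 to 8, had its first 6 bases at positions 2 to 7, or held its 7 bases anywhere. A seed held by exactly 2 sequences was not rare, with 40 such seeds among 299, while 242 seeds had 1 sequence each.

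By position-wise identity, each line with the miR-365 seed was the closest of all sequences to the other. The next, each with 14 identical positions to PC-3p-83_47257, were lgi-miR-193_1ss22CA and the predicted PC-3p-958_1693. The miR-193 line differed from PC-3p-83_47257 at 8 positions, of which C3A and G6C lie in the seed. Downstream of base 8 it matched PC-3p-83_47257 at 9 of 14 positions, and it matched aca-miR-365-3p at 8 of 14.

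The registered miR-365 line was almost absent from the table. aca-miR-365-3p was listed at 0 in the 3 LPS exosome libraries, at 0, 8.34 and 0 in those of normal exosomes, and at 0 in the 3 of PBS (normalized counts, the authors' unit). It was thus above 0 in a single library, normal exosomes replicate 2, where its value corresponds to about 9 reads. Reads here and below are inferred from the spacing of the values and hold only if 1 step of that spacing is 0.5 reads. In all, 309 lines had whole inferred reads alone, the lines with the miR-365 seed and the miR-193 lines included. Their smallest value above 0 was 5 reads in 6 libraries and 3 in the other 3, so a line listed at 0 may have had a few reads. Such sparse lines were common, and 141 of 417 lines were above 0 in exactly 1 library, 7 of them with a value above that of aca-miR-365-3p. The line did not reach 10 in 3 libraries, the filter on low values, so it was not tested in any comparison. No fold between groups is given for it.

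The library that held it was also the one richest in other lines named from the green anole. The other 31 aca lines summed to 291.0, 734.7 and 964.0 in the LPS exosome libraries, 898.9, 2233 and 437.0 in those of normal exosomes, and 332.5, 1493 and 832.1 in those of PBS. Normal exosomes replicate 2 had the highest value of 19 of these 31 lines, against 69 of all 417 lines (16.5%). Of these 31 lines 8 were above 0 in exactly 1 library, and for 5 it was this one, against 24 of 141 among all lines. One of the 31 is aca-miR-122-5p_R+1, of a family known from vertebrate liver, at 523.7 in that library against 21.6 to 157.5 in the others. What these lines have to do with the single miR-365 value was not tested, and they were looked at after the values had been seen.

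PC-3p-83_47257, in contrast, was among the abundant lines of these libraries. Averaged over the 9 libraries it ranked 22 of 417 lines and 5 of 204 predicted lines, with 9368 ± 3246 (SD, n = 9) normalized counts and 0.179% of the signal. In normal exosomes replicate 2, the single library with both lines, its value of 9292 was 1114 times that of aca-miR-365-3p. The signal with the miR-365 seed was therefore almost entirely that of the predicted line. It rested on 3606 to 17430 inferred reads per library, for which counting error alone, with reads taken as independent molecules, is 1.67% to 0.757%, against coefficients of variation between libraries of 23.6%, 19.0% and 13.9% in the LPS exosome, normal exosome and PBS groups.

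PC-3p-83_47257 stood at 5984, 6612 and 4087 in the LPS exosome libraries, at 13669, 9292 and 12185 in those of normal exosomes, and at 9335, 10798 and 12350 in those of PBS. The 3 LPS exosome libraries were the lowest of the 9 and did not overlap with either of the other groups, whose ranges overlapped each other. Group means were 5561 ± 1315 with LPS exosomes, 11715 ± 2226 with normal exosomes and 10828 ± 1507 with PBS (SD, n = 3 each). Ordered by level, normal exosomes and PBS were neighbours that did not differ beyond their spread, and LPS exosomes came last. Its rank within the library was 23 to 27 with LPS exosomes, 20 to 21 with normal exosomes and 19 to 21 with PBS.

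**Figure D1:**
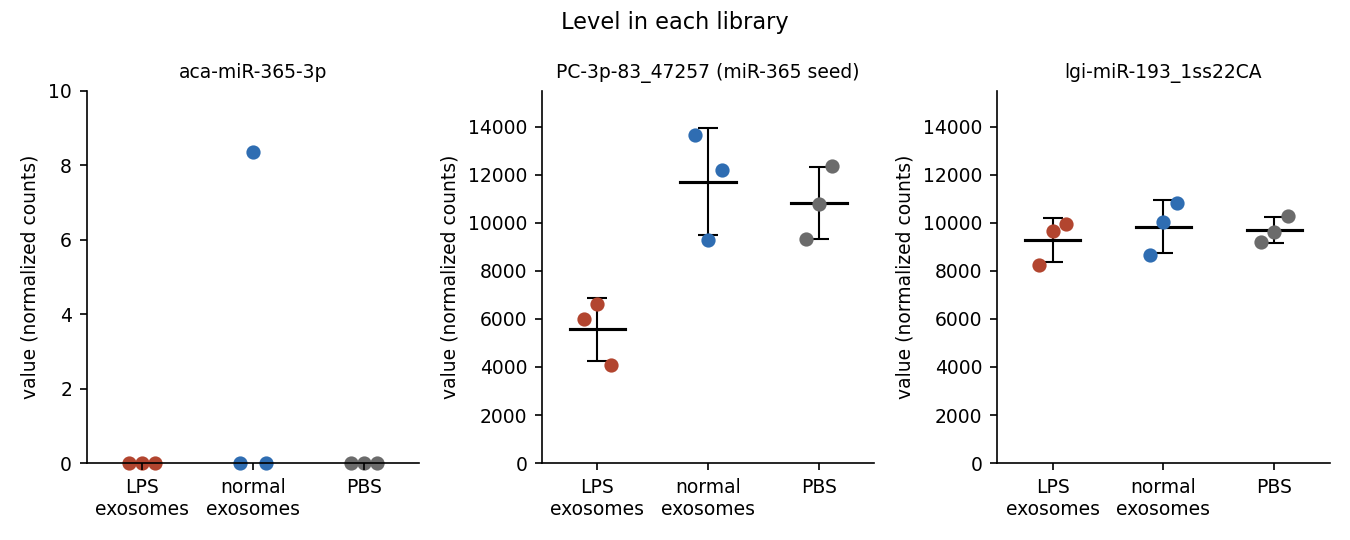
Level in normalized counts (y axis, from 0) of the lines with the miR-365 seed and of the miR-193 line, by group. Points are libraries, and in the middle and right panels bars are the mean with the SD of 3 libraries. aca-miR-365-3p is above 0 in 1 library, PC-3p-83_47257 is at 4087 to 6612 with LPS exosomes against 9292 or more elsewhere, and the miR-193 line overlaps in all 3 groups.

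On the log2(value + 1) scale, PC-3p-83_47257 differed by -0.98 ± 0.22 between LPS exosomes and PBS and by -1.09 ± 0.22 between LPS exosomes and normal exosomes (SE, limma fit of all 9 libraries), which are levels 1.97-fold and 2.12-fold lower. Between normal exosomes and PBS the difference was 0.10 ± 0.22, which is less than its error. These differences share libraries, so they are not independent of each other. By size, 40 of 162 tested lines had a larger difference between LPS exosomes and PBS in either direction, and 33 between LPS exosomes and normal exosomes. Among the 81 tested lines with a mean of 100 or more, 3 had a lower difference than PC-3p-83_47257 between LPS exosomes and PBS, and 1 between LPS exosomes and normal exosomes. Over the 162 lines, 8 (4.94%) had all 3 LPS exosome libraries below the other 6, a pattern known when PC-3p-83_47257 was chosen, and 6 (3.7%) had all 3 above.

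**Figure D2:**
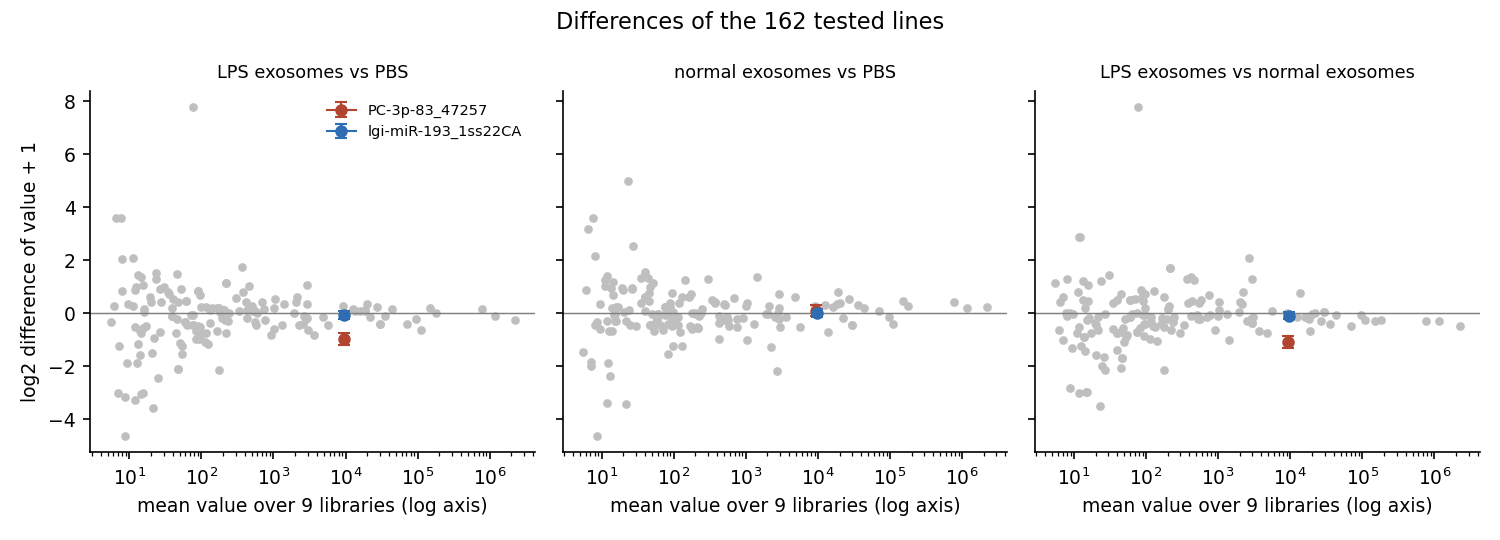
Log2 difference of value + 1 (y axis) against the mean value over 9 libraries (x axis, log scale) for the 162 tested lines in the 3 comparisons; grey points are lines and error bars are standard errors from limma. PC-3p-83_47257 lies at -0.98 and -1.09 in the comparisons that include LPS exosomes and at 0.10 between normal exosomes and PBS, while the miR-193 line of like abundance lies at -0.07 and -0.08 where LPS exosomes are included and at 0.02 between normal exosomes and PBS.

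The scale of the libraries matters for such a level, since normalized totals ran from 4002817 to 6337019 and the LPS exosome group held the lowest of them. As a share of its library's signal, PC-3p-83_47257 held 0.113%, 0.145% and 0.102% in the LPS exosome libraries, 0.216%, 0.162% and 0.222% in those of normal exosomes, and 0.218%, 0.186% and 0.246% in those of PBS. The LPS exosome libraries were again the 3 lowest, with a narrower gap to the nearest other library, normal exosomes replicate 2. On shares, 4 of 162 lines (2.47%) had this order. The mean share with LPS exosomes was 1.80-fold lower than with PBS and 1.66-fold lower than with normal exosomes, and the difference between normal exosomes and PBS changed sign to -0.12 when libraries were scaled to equal totals. That scaling moved the median log2 difference of all tested lines from -0.06 to 0.07 between LPS exosomes and PBS, from -0.15 to 0.16 between LPS exosomes and normal exosomes, and from -0.00 to -0.22 between normal exosomes and PBS. On signal without the most abundant line, PC-3p-83_47257 differed by -0.94 between LPS exosomes and PBS and by -0.84 between LPS exosomes and normal exosomes. Between normal exosomes and PBS it was -0.10.

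Of the vertebrate cluster list, miR-193 and miR-365 by number, 3 lines were in the table and 1 passed the filter. This was lgi-miR-193_1ss22CA, which ranked next above PC-3p-83_47257 in mean level, at 21 of 417. It stood at 8223, 9670 and 9938 in the LPS exosome libraries, at 8668, 10041 and 10814 in those of normal exosomes, and at 9181, 9620 and 10265 in those of PBS. All 3 groups overlapped, with group means of 9277 ± 922, 9841 ± 1087 and 9689 ± 545 (SD, n = 3 each) for LPS exosomes, normal exosomes and PBS.

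The miR-193 line passed limma's test in none of the comparisons. Its log2 differences were -0.07 ± 0.14 (SE; limma, Benjamini-Hochberg adjusted p = 0.818) for LPS exosomes against PBS, 0.02 ± 0.14 (0.998) for normal exosomes against PBS and -0.08 ± 0.14 (0.784) for LPS exosomes against normal exosomes. With 2 standard errors on each side, these intervals run from 0.785-fold to 1.16-fold, from 0.832-fold to 1.23-fold and from 0.775-fold to 1.15-fold. Of the 162 tested lines 4.32% were called in each comparison, with 3.09% higher and 1.23% lower for LPS exosomes against PBS, 1.85% higher and 2.47% lower for normal exosomes against PBS, and 3.7% higher and 0.617% lower for LPS exosomes against normal exosomes. The shares of lower lines in the comparisons with LPS exosomes count PC-3p-83_47257 itself, so they are no background for that line. Its level was known when it was chosen, so being counted there is no test of it. The sign of the miR-193 differences was not stable, and between LPS exosomes and normal exosomes it was 0.27 at equal totals. The other miR-193 line, lgi-miR-193_1ss21AC, was at 4.37 in LPS exosomes replicate 1 and listed at 0 in the other 8 libraries.

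A ratio within a library does not depend on how libraries are scaled. PC-3p-83_47257 over lgi-miR-193_1ss22CA was 0.728, 0.684 and 0.411 in the LPS exosome libraries, 1.58, 0.925 and 1.13 in those of normal exosomes, and 1.02, 1.12 and 1.20 in those of PBS. The lines were thus at near equal levels with PBS, and the 3 LPS exosome ratios lay below the other 6. The mean ratio was 0.608 ± 0.171 with LPS exosomes, 1.21 ± 0.334 with normal exosomes and 1.11 ± 0.0934 with PBS (SD, n = 3 each). No test is given, since 1 of the lines was chosen with its levels known, and the ratio itself was added after the data had been seen.

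**Figure D3:**
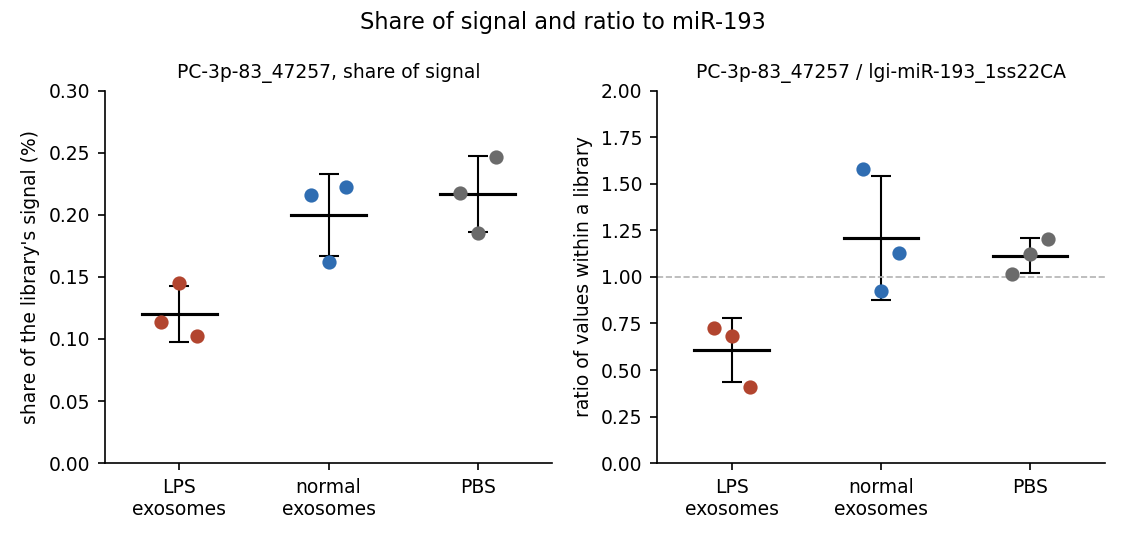
Left, share of the library's signal held by PC-3p-83_47257 in percent; right, ratio of its value to that of lgi-miR-193_1ss22CA within each library, with a dashed line at 1. Points are libraries and bars are the mean with the SD of 3 libraries; in both panels the 3 LPS exosome libraries are the lowest, at 0.102% to 0.145% and at ratios of 0.411 to 0.728.

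PC-3p-83_47257 varied less within groups than most tested lines, though not less than most lines of like abundance. Its pooled SD of log2 values within groups was 0.29, against a median of 0.50 over the tested lines, and 127 of 162 had a larger one. The miR-193 line was steadier, at 0.14. Beside lines of like abundance, PC-3p-83_47257 was less steady: 2 of the 8 tested lines with a mean within 2-fold of its own had a larger SD. All 3 LPS exosome libraries lay below the other 6 in 4.94% of the 162 tested lines and in none of these 8, which is near that share. This order was known for PC-3p-83_47257 when it was chosen. The log2 differences of the 8 lines between LPS exosomes and PBS ran from -0.44, for the predicted PC-3p-66_67138, to 0.29, for mle-miR-745b-3p. Leaving out each library in turn gave -1.12 to -0.77 for LPS exosomes against PBS and -1.24 to -0.88 for LPS exosomes against normal exosomes, and the smallest size in both came without LPS exosomes replicate 3, its lowest library. Without LPS exosomes replicate 1 and PBS replicate 1, which stood farthest out on the first and second principal components of the 162 lines, the values were -1.15 and -1.15.

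The lines most like PC-3p-83_47257 across the 9 libraries were chosen by Pearson's r of log2(value + 1), over the 80 other tested lines with a mean of 100 or more. These r values describe the libraries, and since lines were picked for them no p is given. The highest belonged to PC-3p-149_19704 (r = 0.84, Spearman's rho = 0.75), a predicted line with the seed ATCACAG, which the miR-2 lines of the table also have. PC-3p-149_19704 averaged 2569 ± 136 with LPS exosomes, 3305 ± 291 with normal exosomes and 2883 ± 301 with PBS (SD, n = 3 each). At equal totals its r was 0.33, so its likeness moves with the library totals. Around the group means it was 0.76.

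Next came PC-5p-1_12698927 (r = 0.77, rho = 0.60), the most abundant line of the table, whose r was 0.65 at equal totals and 0.64 around the group means. Its mean of 2.24e+06 is a large part of the library totals of 4002817 to 6337019, so it weighs on every share of signal. PC-3p-552_3225 (r = 0.76, rho = 0.67), with 0.77 at equal totals, had the same order of groups as PC-3p-83_47257 at a far lower level. It averaged 56.6 ± 31.9 with LPS exosomes, 251.3 ± 166 with normal exosomes and 227.3 ± 72.8 with PBS (SD, n = 3 each). Around the group means its r was 0.03, so its likeness was that of the group levels. The median r over the 80 lines was 0.16, and lgi-miR-193_1ss22CA had 0.17.

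The lines least like it ran the other way. mle-miR-216b-5p, of a family best known from the pancreas of vertebrates, had r = -0.92 and rho = -0.90, and -0.78 at equal totals. It stood at 758.2, 648.4 and 751.4 in the LPS exosome libraries, 301.9, 346.7 and 255.2 in those of normal exosomes, and 503.9, 309.9 and 284.7 in those of PBS, so that its 3 LPS exosome libraries were above the other 6. mle-miR-10b-5p_R-1_2ss9GT21TA, of a family encoded in Hox clusters, had r = -0.84 and rho = -0.72, and -0.87 at equal totals. It averaged 4647 ± 498 with LPS exosomes, 1929 ± 454 with normal exosomes and 2198 ± 381 with PBS (SD, n = 3 each). Around the group means the r values were -0.59 for miR-216b-5p and 0.00 for the miR-10b-5p line.

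**Figure D4:**
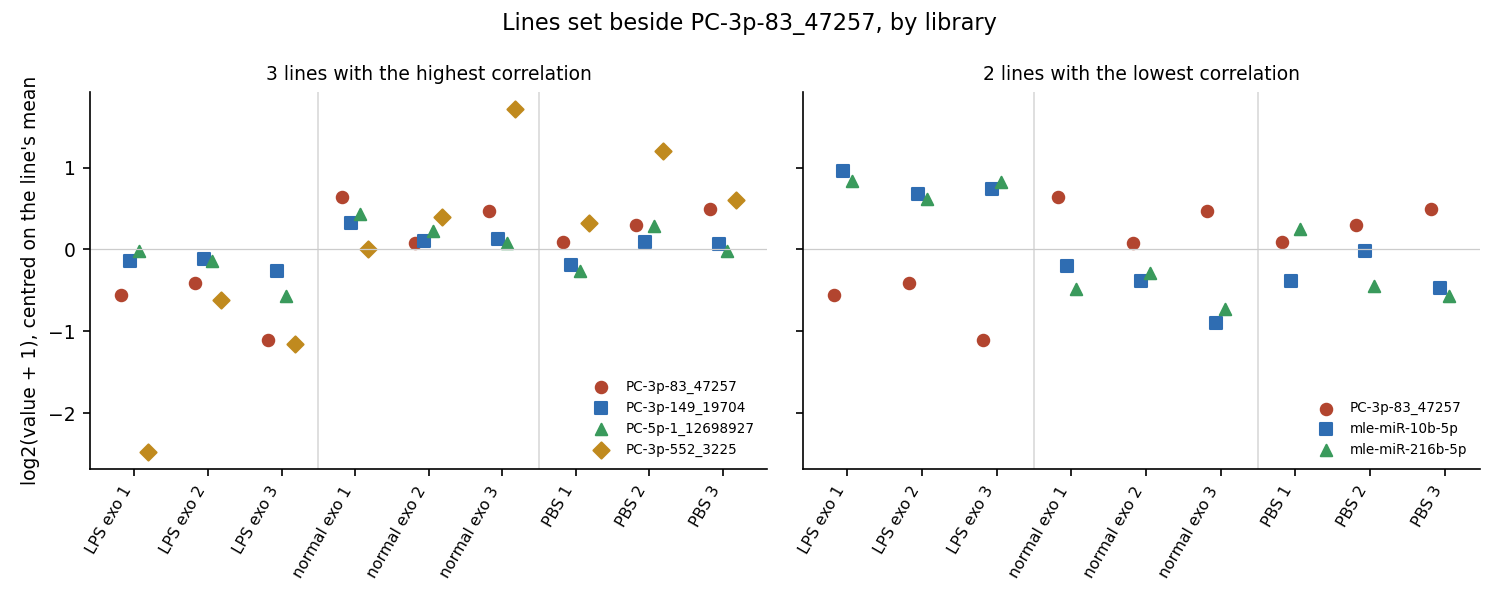
Log2(value + 1) centred on each line's mean (y axis) in the 9 libraries (x axis, numbered within the LPS exosome, normal exosome and PBS groups) for PC-3p-83_47257 with the 3 tested lines of highest Pearson's r (left) and the 2 of lowest r (right); points are libraries. The lines on the left have r of 0.76 to 0.84 and those on the right -0.92 and -0.84, and PC-3p-83_47257 is below 0 in the LPS exosome libraries alone.

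Among other families, the immune-associated list (miR-21, miR-29, miR-31, miR-34, miR-125, miR-146, miR-150, miR-155, miR-181, miR-223 and let-7 by number) had 26 lines, 17 of them tested. For miR-150, miR-155 and miR-223 there was no line, and no line of miR-146 or miR-181 passed the filter, so the calls do not cover these families. Of the 17 tested lines none was called for LPS exosomes against PBS, 1 was lower for normal exosomes against PBS and 1 higher for LPS exosomes against normal exosomes, in both cases mle-miR-31-5p. Over all tested lines 4.32% were called in each comparison, so 1 of 17 is near the background. The log2 differences of mle-miR-31-5p were -2.18 (limma, adjusted p = 0.000983) for normal exosomes against PBS and 2.09 (limma, adjusted p = 0.00069) for LPS exosomes against normal exosomes. Both calls of mle-miR-31-5p held in all 22 alternatives. The list's median log2 differences were 0.02 for LPS exosomes against PBS, -0.01 for normal exosomes against PBS and -0.51 for LPS exosomes against normal exosomes, beside -0.06, -0.00 and -0.15 over all tested lines. Its line of highest mean, eca-let-7c, was not called in any comparison. Lines with the same values, such as aca-miR-21-5p and bta-miR-21-5p_R-2, each count in the list's medians.

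No miRNA was taken as a defining marker of scallop hemocytes, so the cell label was not checked against one. Markers of other tissues were summed per library, and their part in the level of PC-3p-83_47257 was not tested. The 7 muscle lines, mostly mle-miR-133-3p_2ss15TC19TC, summed to 138267 to 220526 with LPS exosomes, 179221 to 230147 with normal exosomes and 132632 to 206292 with PBS. The 4 nervous tissue lines, mostly lgi-miR-7, summed to 401.2 to 832.4 with LPS exosomes, 206.9 to 727.5 with normal exosomes and 500.7 to 607.7 with PBS, with miR-124 above 0 in 1 library and miR-9 in 3. Neither sum set the groups apart, and none of the 5 muscle lines and 1 nervous tissue line that were tested was called. Over all tested lines 4.32% were called in each comparison, so no call in lists this small is near the background. The same share stands beside the calls of the lists that follow. The 9 epithelial and sensory lines, mostly mle-miR-96a-5p_1ss19GC, summed to 80048 to 99415 with LPS exosomes, 74498 to 112382 with normal exosomes and 99175 to 111528 with PBS, so LPS exosomes and PBS overlapped only at their edges. Of this list 6 lines were tested, with median log2 differences of -0.23 for LPS exosomes against PBS, -0.55 for normal exosomes against PBS and 0.74 for LPS exosomes against normal exosomes. One of them was called, and its sign against PBS is opposite to the list's median: mle-miR-263a-5p was higher with LPS exosomes than with PBS (log2 difference 1.74, limma adjusted p = 0.0105) and than with normal exosomes (1.31, limma adjusted p = 0.0397). The first call was lost without PBS replicate 3, and the second when any of 8 of the 9 libraries was left out, all but PBS replicate 1 (limma adjusted p of 0.00369 to 0.117 over its alternatives). The 7 gut and endocrine lines, mostly mle-miR-216b-5p, summed to 752.6 to 930.5 with LPS exosomes, above 418.7 to 678.0 with normal exosomes and 489.6 to 665.0 with PBS. This sum was highest in the group where PC-3p-83_47257 was lowest, but it rested on 1 line. The 4 tested lines had median log2 differences of -0.24 for LPS exosomes against PBS, 0.42 for normal exosomes against PBS and -1.16 for LPS exosomes against normal exosomes. In the last comparison mle-miR-375-3p (-0.95 ± 0.33, SE), aca-miR-194-5p (-1.37 ± 1.52) and bta-miR-192_R-2 (-1.66 ± 1.75) had the opposite sign to mle-miR-216b-5p and were not called. The differences of aca-miR-194-5p and bta-miR-192_R-2 were smaller than their errors, so their signs are uncertain. mle-miR-216b-5p was higher with LPS exosomes than with normal exosomes (log2 difference 1.26, limma adjusted p = 0.0314) and did not pass against PBS (1.02, limma adjusted p = 0.0631). The call against normal exosomes was lost when any of 7 of the 9 libraries was left out, all but PBS replicates 1 and 3 (limma adjusted p of 0.0131 to 0.155 over its alternatives), and the comparison with PBS passed without PBS replicate 1.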

How the data were processed

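Hemocyte small RNA was prepared with a TruSeq small RNA kit for an Illumina HiSeq run, per the labels' protocols. They name ACGT101-miR as the program that took out adapter dimers, junk, reads of low complexity, repeats and the rRNA, tRNA, snRNA and snoRNA families. The authors deposited 1 signal value per line and library, called a normalized count in the file headers. Neither the normalization nor the aligner, build or miRBase release is stated in the labels or headers, so no positions are printed. Of the 1990 values above 0, 99.55% were whole multiples of 1 step per library (tolerance 0.01 steps). In 309 of 417 lines all multiples were even, so 1 step was taken as 0.5 reads, and 83.2% of values were then whole reads. Inferred reads in the listed lines totalled 3531702 to 7838091 per library. They enter no test.

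Values were tested as log2(value + 1) with limma 3.58.1 in R 4.3.3 (with statmod 1.5.0, a trended prior and robust fitting), in 1 model of 3 group means with 6 residual degrees of freedom. The 162 lines with 10 or more in at least 3 libraries entered, with Benjamini-Hochberg adjustment over them and a threshold of 0.05. Standard errors of PC-3p-83_47257 come from the same fit. The lines, lists and tests were chosen with earlier results of these data known. Named lines were the 2 with the miR-365 seed, their sequence relatives, the 3 most and 2 least alike by r, and for each list its called members and its line of highest mean. A test of aca-miR-365-3p and a ratio to it were planned, but its values did not allow them, and the ratio to the miR-193 line was used in its place.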

Additional observations from a re-analysis of the deposited data

How the results depend on the processing

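The 22 alternatives for each comparison included 3 scalings, 2 pseudocounts, each library left out and 2 added after the data had been seen. The 2 filters, repeated sequences counted once, other limma settings, fits of 2 groups and the replicate number as a block cannot move a difference. Nor can leaving out a library of the third group. PC-3p-83_47257 was lower with LPS exosomes in all 22, an order known when it was chosen, so its sign is no test. Its difference ran from -1.15 to -0.77 on the log2 scale against PBS and from -1.24 to -0.74 against normal exosomes. The -0.74 came at equal library totals, a move larger than the spread between libraries. Against PBS, normal exosomes changed sign in 4 alternatives (-0.12 to 0.26). The ratio to the miR-193 line differed by -1.07 to -0.66 for LPS exosomes against PBS and by -1.18 to -0.74 against normal exosomes when each library was left out. The miR-193 line was not called in any of its 22 alternatives per comparison. The call of mle-miR-263a-5p was lost in 2 of 22 for LPS exosomes against PBS and in 12 of 22 against normal exosomes, and that of mle-miR-216b-5p against normal exosomes in 9 of 22, all with the same sign. With the block, PC-3p-83_47257 stays at -0.98, 0.10 and -1.09, since every group holds every replicate number. Its standard error was 0.24. The replicate numbers showed no clear pairing of the libraries. The r of same-number deviations ran from -0.30 to 0.29, with 4 of 9 pairs over 0.1. Of the 9 libraries 4 correlated best with their own number. Deviations from means of 3 libraries cannot settle whether libraries were paired.

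The number of lines called, which is the background here, was 7 in each comparison and depended on the setting. For LPS exosomes against PBS it was 4 with a mean of 50 or more, 3 with 2 groups, 1 without LPS exosomes replicate 1 and PBS replicate 1, and 12, 3 and 1 without PBS replicate 1, 2 and 3. For normal exosomes against PBS it was 12 at equal totals, 11 on signal without the most abundant line, 2 with quantile normalization, 4 with no filter, 3 with a mean of 50 or more, 3 with the replicate block, 2, 3 and 2 without normal exosomes replicate 1, 2 and 3, and 8, 3 and 2 without PBS replicate 1, 2 and 3. For LPS exosomes against normal exosomes it was 3 with quantile normalization, 2 without trend and robust settings, 11 without LPS exosomes replicate 1 and PBS replicate 1, 3, 4 and 4 without LPS exosomes replicate 1, 2 and 3, 3 and 4 without normal exosomes replicate 1 and 3, and 3 without PBS replicate 2. The split of 5 higher and 2 lower, 3 and 4, and 6 and 1 became 5 and 1, 3 and 9, and 7 and 0 at equal totals. With quantile normalization it was 4 and 2, 0 and 2, and 3 and 0. The cause of these shifts was not tested. Count models on inferred reads and 1 scaling made for counts were planned and not run, since the table does not hold raw counts. No alternative gave a value for aca-miR-365-3p or a ratio to it. Lines listed at 0, such as lgi-miR-193_1ss21AC and the miR-124 and miR-9 lines, may have had a few reads at this depth.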

Other observations

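The 8 tested lines with all 3 LPS exosome libraries below the other 6 differed widely in level, and they were named after their values had been seen. Besides PC-3p-83_47257 they were mle-miR-2b-3p_1ss11AT (means of 56702 with LPS exosomes, 80005 with normal exosomes and 75143 with PBS), cel-mir-5592-1-p3_1ss8TC (625.4, 1018 and 1112), PC-3p-552_3225, mle-miR-375-3p (68.7, 128.7 and 142.5), of a family best known from endocrine cells, PC-3p-4475_307 (26.8, 63.9 and 59.7), PC-3p-10933_110 (2.27, 15.2 and 18.3) and PC-5p-14591_77 (1.21, 11.1 and 14.0). On shares of signal, 4 of them had this order: PC-3p-83_47257, PC-3p-552_3225, PC-3p-10933_110 and PC-5p-14591_77, all predicted lines with no registered name. Of the 162 tested lines, 52 were predicted. PC-3p-10933_110 and PC-5p-14591_77 were sparse, with means over the 9 libraries of 11.9 and 8.77, near the filter's value of 10. Whether predicted lines were more frequent among these 4 than among the tested lines was not tested. PC-3p-83_47257 was the most abundant of these 4, with a mean of 9368 against 178.4 for the next.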
